A study of Mus musculus with 16 samples.

Results

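The 45 genes described here are the Hox genes of the mouse clusters a to d (39 genes) and the Dlx genes Dlx1 to Dlx6 (6 genes), found by symbol among the 49139 named genes of the count tables. Of these 45, 12 had at least 10 counts in at least 3 of the 16 libraries. Those 12 were thus selected on their measured counts, and which members passed is a description and not a test. The libraries hold RNA of sorted 4T07 cells, a mouse mammary carcinoma line transduced with either GFP or mCherry and grown in the mammary fat pad of F1 mice of C57BL/6J and Balb/cJ. In the mixed tumours, 250000 cells of both colours were implanted as an equal mix, Jedi T cells lacking PD1, whose receptor recognises GFP, were given by vein on day 7 or day 15, and tumours were taken 7 days later. Both colours were sorted from 3 tumours given T cells on day 7 and from 3 given them on day 15, and 4 control tumours, grown from mCherry cells alone and given no Jedi T cells, gave mCherry libraries.

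The mCherry cells are the bystanders that Jedi T cells do not recognise, and the GFP cells are those that survived. No library holds GFP cells of a tumour without Jedi T cells, so the colour of the line and the attack by T cells cannot be told apart. All of day 7 was in sequencing run 1, while day 15 and the controls shared run 2, so day and run cannot be told apart either. Libraries are named here by the number in the column names of the tables. It is 2 to 4 for day 7, 1 to 3 for day 15 and 1 to 4 for the controls. Tumours carry the same numbers, so a number used on both days stands for different tumours. On day 7, libraries of the same number were taken as the same tumour, which the labels do not state. Total counts ranged from 9412040 to 19970822 on day 7, from 21183324 to 24880582 on day 15 and from 24367417 to 32808354 in the controls. The keratins Krt8 and Krt18 averaged 363 to 826 and 101 to 387 CPM (counts per 1000000 counts) by group, whereas the epithelial adhesion gene Epcam averaged 0.954 to 1.61 CPM and the basal keratin Krt14 was at 0 in all 6 day 7 libraries. Summed macrophage markers were 107 to 181 CPM in GFP and 629 to 912 CPM in mCherry cells on day 7, and 54.9 to 72.9 and 88.1 to 109 CPM on day 15. Summed endothelial markers were 6.12 to 6.96 and 31.2 to 58.5 CPM on day 7, and 9.21 to 14.2 and 11.5 to 39.3 CPM on day 15. CD45 and DAPI stains were used in the sort. At an adjusted p under 0.05 with edgeR, 14 of 14 macrophage and 10 of 10 endothelial markers tested on day 7 were called lower in GFP cells. On day 15, 6 of 10 and 4 of 12 were called lower, and the median log2 fold changes were -0.82 and -1.14. Of fibroblast markers, 3 of 8 were called lower on day 7, and on day 15 4 of 10 were called lower and 1 higher. Of pericyte markers, 1 of 4 was called lower on day 7 and 2 of 6 on day 15. Among all genes tested, 9.33% were called lower on day 7 and 10.6% on day 15, and 8.94% were called higher on day 15. Control library 2 stood apart, with 95.2 CPM of endothelial and 209 CPM of macrophage markers, against 15.6 to 32.4 and 82.4 to 121 CPM in the other controls.

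Hox genes encode homeodomain transcription factors that give cells of the embryo their position along the body axis. They lie in clusters in which the order of the genes follows the order of the body levels at which they act, low numbers towards the head and high numbers towards the tail. Many stay on in adult tissues in a pattern fixed by where the cells came from, held off elsewhere by Polycomb proteins and held on by Trithorax proteins. Their proteins bind DNA together with TALE homeodomain partners such as Pbx and Meis. Dlx genes, the relatives of fly Distal-less, lie in tail-to-tail pairs, pattern the jaws, limbs and forebrain, and take part in bone formation.

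Both families bind DNA at sites with the core TAAT. The stretches of 250 bases before 4 start sites are shown because they lie at the edges of what was on and off: Hoxa5, the member with the highest level; Hoxa10, the last active gene of the Hoxa cluster, at the outer of its 2 start sites in the table; Hoxa13, a silent gene beyond it; and Dlx2, the silent partner of Dlx1. They come from the RefSeq promoter table of GRCm38.p6, all on the minus strand and written 5′ to 3′, and capitals mark TAAT or its reverse complement ATTA.
Hoxa5, chr6:52204588-52204837: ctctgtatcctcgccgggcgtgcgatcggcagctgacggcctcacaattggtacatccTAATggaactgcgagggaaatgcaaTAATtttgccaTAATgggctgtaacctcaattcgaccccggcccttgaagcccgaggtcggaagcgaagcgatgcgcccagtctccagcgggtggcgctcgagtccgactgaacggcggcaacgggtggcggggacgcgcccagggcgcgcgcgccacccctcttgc
Hoxa10, chr6:52240855-52241104: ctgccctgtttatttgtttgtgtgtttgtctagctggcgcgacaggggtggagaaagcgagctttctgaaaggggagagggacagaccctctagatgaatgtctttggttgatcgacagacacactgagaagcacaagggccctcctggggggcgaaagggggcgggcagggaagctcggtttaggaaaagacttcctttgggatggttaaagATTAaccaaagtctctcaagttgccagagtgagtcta
Hoxa13, chr6:52260881-52261130: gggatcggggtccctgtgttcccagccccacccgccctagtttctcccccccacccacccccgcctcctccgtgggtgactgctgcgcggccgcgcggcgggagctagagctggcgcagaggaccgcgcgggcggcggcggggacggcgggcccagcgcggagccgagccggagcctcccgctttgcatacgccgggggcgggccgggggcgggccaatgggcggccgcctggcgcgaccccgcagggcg
Dlx2, chr2:71546755-71547004: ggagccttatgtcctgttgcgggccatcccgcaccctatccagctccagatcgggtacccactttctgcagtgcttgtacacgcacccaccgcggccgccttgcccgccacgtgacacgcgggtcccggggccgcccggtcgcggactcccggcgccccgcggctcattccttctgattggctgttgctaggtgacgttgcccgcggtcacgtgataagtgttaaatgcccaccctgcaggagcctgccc
The Hoxa5 stretch held 3 such cores and 28 CpG dinucleotides, and that of Hoxa10 held 1 and 7. Neither Hoxa13 nor Dlx2 had a TAAT core in this window, with 35 and 24 CpGs. The table matched 24 members with 26 start sites, among which TAAT occurred in 7 of the 9 windows of members that passed and 11 of the 17 of members that did not. It occurred in 54.9% of all 32851 windows of this length, searched on both strands. The CpG number had a median of 18 (range 3 to 28) in the 9 windows and of 13 (2 to 35) in the 17, against 6 over all windows. A match is a description of letters and says nothing of binding, and windows of active and silent members overlapped in both measures.

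The active members were almost all in the Hoxa cluster. Of the 11 genes of that cluster on chromosome 6, 9 passed, among them Hoxa2, Hoxa3, Hoxa4, Hoxa5, Hoxa6, Hoxa7, Hoxa9 and Hoxa10, and the other 3 that passed were Hoxc6, Dlx1 and Dlx4. The 11 Hoxa genes gave 97.6% to 99.1% of all Hox counts in the libraries other than control 2, where they gave 94.2%. The activity ended within a few kilobases of sequence: Hoxa10 had 119 to 829 counts in every library, whereas Hoxa11 had 5 counts and Hoxa13 had 8 counts over all 16 libraries together. Hoxa11 and Hoxa13 lie beyond Hoxa10 at the posterior end of the cluster.

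The Hoxb and Hoxd clusters were silent by the threshold, with 0 of 10 and 0 of 9 genes passing, and Hoxc6 was the single one of 9 Hoxc genes to pass. Outside control 2, the 10 Hoxb genes together reached 0.106 to 1.11 CPM per library, the 9 Hoxc genes 0.300 to 1.89 CPM and the 9 Hoxd genes 0.0688 to 0.595 CPM. Hoxd1, Hoxd12 and Hoxd13 had no count in any of the 16 libraries, and a count of 0 allows up to 3 counts, which is 0.0914 to 0.319 CPM in a single library and 0.00882 CPM over all libraries. These limits cover counting error only. Of the 33 members that did not pass, 14 never exceeded 3 counts in a library.

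In no Dlx pair were both genes active. Dlx1 and Dlx4 were at 65 or more and 288 or more counts in every library, while Dlx2, the neighbour of Dlx1 on chromosome 2, had 6 counts in all and Dlx3, beside Dlx4 on chromosome 11, had 26. The pair Dlx5 and Dlx6, known for their part in bone and jaw formation, had 4 and 5 counts over the 16 libraries.

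**Figure D1:**
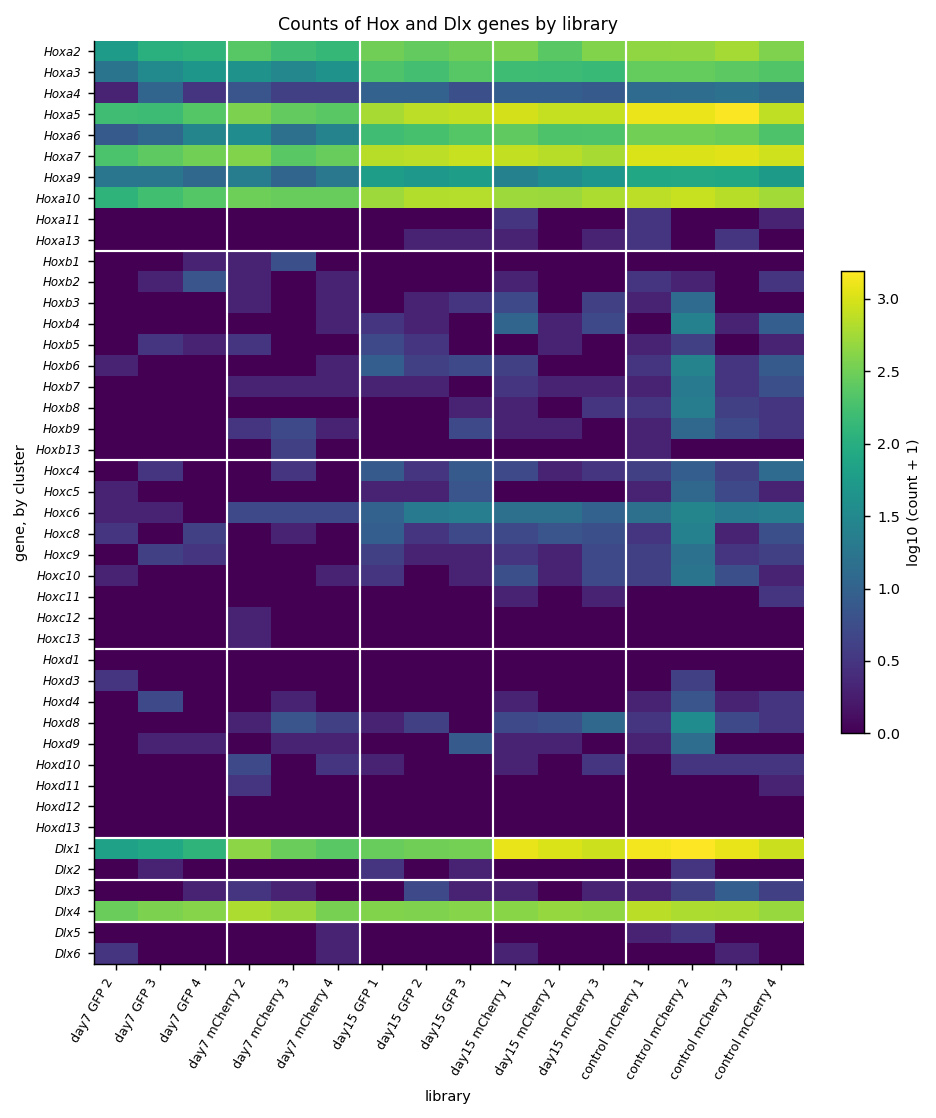
Counts of the members shown (rows, by cluster) in each of the 16 libraries (columns, by group), as log10 of the count plus 1. The bright rows are Hoxa genes, Dlx1 and Dlx4; Hoxa11 and Hoxa13 are dark, and the faint signal in the Hoxb, Hoxc and Hoxd rows, present in other libraries too, is strongest in control library 2.

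Control 2 had the highest summed level of the clusters that were nearly silent. The Hoxb, Hoxc and Hoxd genes summed to 8.44 CPM there and to 0.850 to 3.28 CPM in the other 15 libraries. Of the 33 members that did not pass, 13 reached 10 counts in some library; in 12 of these control 2 was at 10 or more. Hoxd8, with 35 counts there, had a value in the third highest library of 6, and Hoxb4, with 24, had a value in the third highest library of 8, so both stayed outside the threshold. Hoxb6 and Hoxc4, each with a value in the third highest library of 7, did too. Just inside was Hoxa4, with a value in the third highest library of 12. Hoxc6, with 22, passed at 20 counts as well. The same 12 members passed without control 2. Endothelial and macrophage markers were also highest in control 2 among the controls, as given above, and so were neutrophil markers (13.8 CPM against 1.03 to 3.46 CPM) and the leukocyte gene Ptprc (3.60 against 1.60 to 2.02 CPM); their part in the Hoxb, Hoxc and Hoxd counts was not tested.

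**Figure D2:**
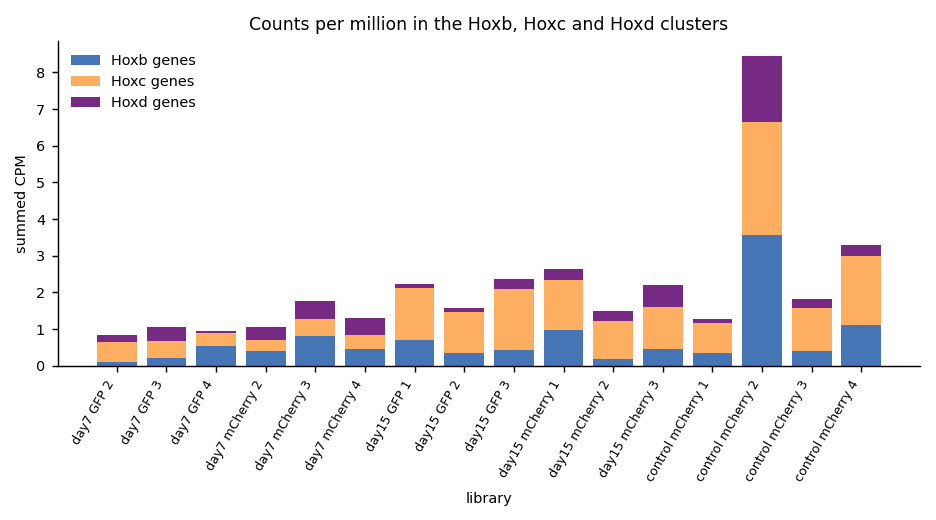
Summed CPM of the Hoxb, Hoxc and Hoxd genes (stacked bars) in each of the 16 libraries. Control library 2 reaches 8.44 CPM, and the other 15 libraries lie between 0.850 and 3.28 CPM.

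Per kilobase of exon, Hoxa5 had the highest mean of the members over the 16 libraries, 15.4 RPKM (CPM per kilobase of exon). Hoxa7 followed at 9.77, Hoxa6 at 7.16, Dlx4 at 7.06, Hoxa2 at 7.05, Hoxa10 at 6.61 and Dlx1 at 4.94 RPKM. This order pools groups and did not hold in each: in day 7 GFP cells Dlx4, at 8.74 RPKM, was above Hoxa5, at 7.89 RPKM, and Hoxa6 was at 1.31 RPKM. Hoxa3 averaged 0.985, Hoxa9 0.325, Hoxa4 0.216 and Hoxc6 0.198 RPKM. Levels along the cluster therefore did not fall evenly from one end. Hoxa4, between Hoxa2 and Hoxa5, was far below those 2 genes in every group, as was Hoxa9 below Hoxa7 and Hoxa10. Hoxa3, whose annotated gene spans Hoxa4, was also low, at 0.403 to 1.44 RPKM by group. Among all genes that passed the same threshold, Hoxa5 stood at percentile 78.9 of mean RPKM, Hoxa7 at 69.1, Dlx4 at 61.9, Dlx1 at 53.8 and Hoxc6 at 8.45. Levels of Hoxa2, Hoxa6 and Hoxa10 had overlapping ranges over the libraries (3.35 to 11.0, 0.851 to 13.01 and 3.80 to 8.74 RPKM) and have no fixed order.

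**Figure D3:**
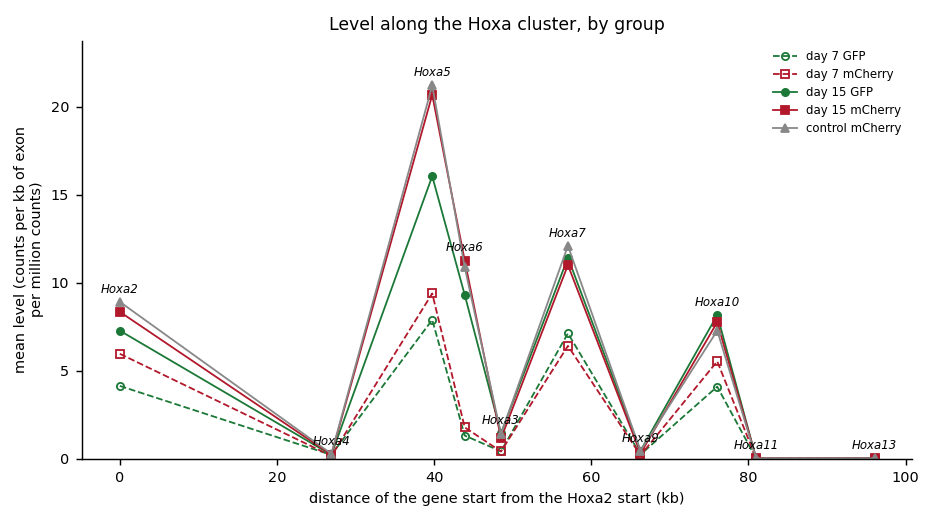
Mean RPKM of Hoxa genes in each group against the distance of the annotated gene start from that of Hoxa2 in kb; lines only join the points. Hoxa5 is highest in every group, Hoxa4 and Hoxa9 are low between active neighbours, and the last genes, Hoxa11 and Hoxa13, are at the axis; Hoxa3 stands after Hoxa6 because its longest annotated transcript starts there.

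Exons of several members overlap those of other genes, and the tables do not say whether counting used the strand. The overlap was 20.4% of the exon length for Hoxa7 and Hoxaas3, 16% for Hoxa4 and Gm29430, 6.21% for Dlx1 and Dlx1as and 2.42% for Dlx4 and Dlx4os. For Hoxa2 and Gm28308, which lie on the same strand, it was 15.0%. Hoxa3 shares exon sequence with 5 other genes. Reads from these stretches cannot be told apart.

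Dlx1, a transcription factor best known from forebrain interneurons and the first branchial arch, was lower in the surviving GFP cells of every tumour on both days. On day 7, GFP cells of tumours 2, 3 and 4 had 6.91, 5.91 and 7.98 CPM and mCherry cells of the same numbers 21.6, 18.2 and 18.4 CPM. On day 15, GFP cells of tumours 1, 2 and 3 had 13.3, 13.5 and 13.3 CPM and mCherry cells 54.4, 45.6 and 40.9 CPM. The colours did not overlap on either day, and the highest GFP value was below the lowest mCherry value by more than the spread within a group. The means were 6.93 ± 1.03 and 19.4 ± 1.92 CPM (SD, n = 3) on day 7 and 13.4 ± 0.114 and 47.0 ± 6.85 CPM (SD, n = 3) on day 15.

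The within-tumour fit of counts with edgeR's quasi-likelihood test gave a log2 fold change of GFP against mCherry of -1.51 (SE 0.18, adjusted p = 3.9e-04) on day 7, a 2.84-fold lower level. On day 15 it was -1.78 (SE 0.11, adjusted p = 1.7e-05), 3.43-fold lower. All 3 tumours moved the same way each day, by -1.63 to -1.20 on day 7 and -2.02 to -1.62 on day 15 on the log2 CPM scale. The call held under every alternative run. Macrophage and endothelial markers were lower in the same GFP libraries, and their part in the Dlx1 difference was not tested. In bulk RNA, fewer expressing cells and less RNA per cell cannot be told apart.

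Dlx1 was 1 of the 10 members tested on day 7 that passed an adjusted p of 0.05, against 18.2% of the 14578 genes tested that did so. On day 15, 2 of 11 members passed, Dlx1 and Hoxa5, against 19.5% of 14260 genes. All 3 of these calls were lower in GFP cells, against 9.33% of all genes called lower on day 7 and 10.6% on day 15. No member was called higher, against 8.89% and 8.94% of all genes. The share of members called was thus near or below that of all genes.

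Dlx1as, the antisense transcript of the Dlx1 locus, had 2.88, 3.78 and 2.49 CPM in GFP cells and 4.76, 3.98 and 5.18 CPM in mCherry cells of tumours 1, 2 and 3 on day 15. Its log2 fold change was -0.59 (SE 0.24, adjusted p = 0.112), and it passed without tumour 2 (-0.84, adjusted p = 0.0463). On day 7 it had 4 to 16 counts per library and was not tested. Dlx2, on the other side of the locus, had 0 to 2 counts in each library of either colour.

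Dlx4, the other active Dlx gene, did not pass on either day. On day 7 GFP cells had 30.6, 27.3 and 27.8 CPM and mCherry cells 31.2, 32.0 and 26.1 CPM, and the colours overlapped. On day 15 they had 17.99, 15.9 and 16.2 against 18.6, 21.6 and 21.02 CPM, which did not overlap. The log2 fold changes were -0.08 (SE 0.13, adjusted p = 0.727) on day 7 and -0.26 (SE 0.13, adjusted p = 0.183) on day 15.

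**Figure D4:**
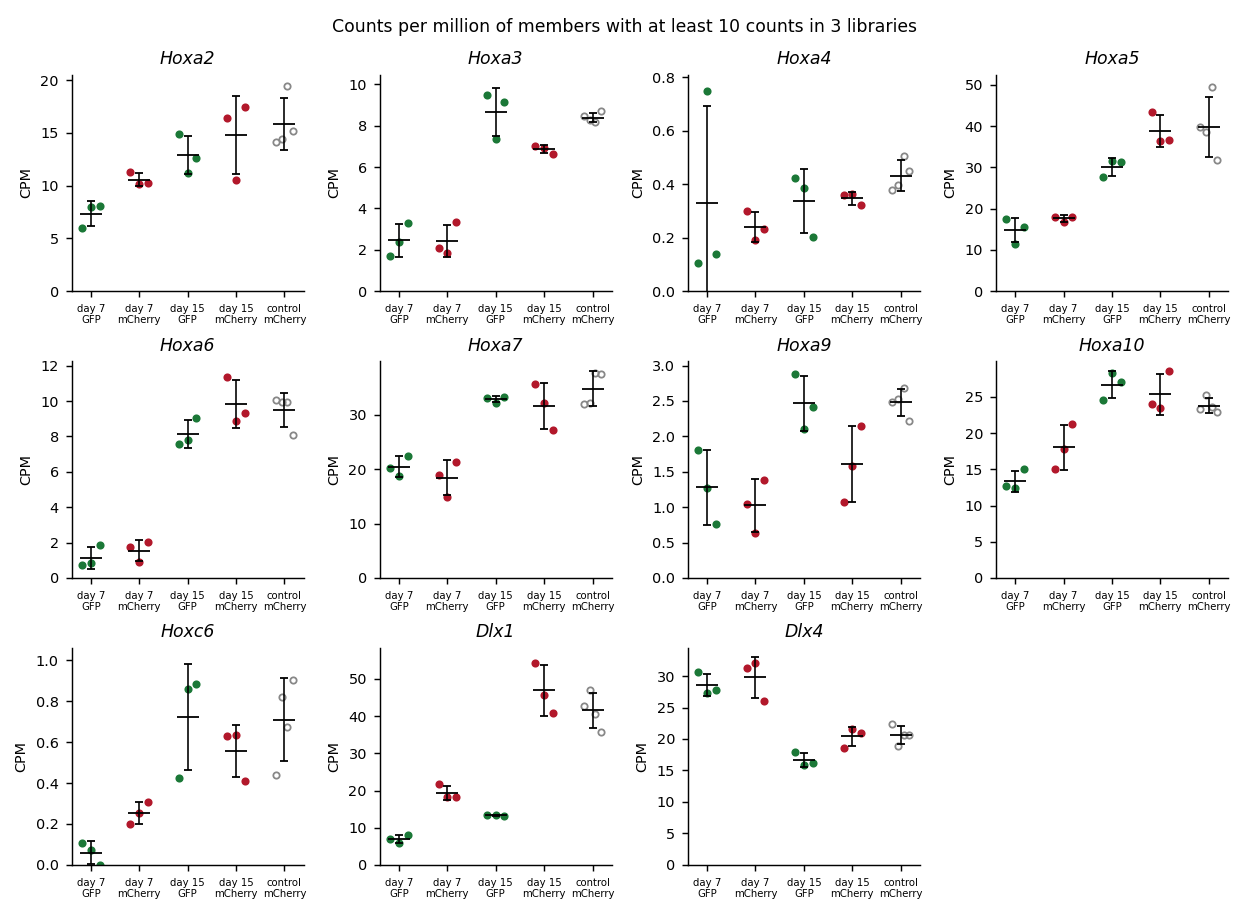
CPM of members that passed, in every library (points) with the mean and SD of each group (bars); lower ends of error bars are clipped at 0 and each panel has its own axis. Dlx1 is the member whose GFP and mCherry points lie far apart on both days; Hoxa6 and Hoxa3 are low in all 6 day 7 libraries.

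Among the Hoxa genes, differences between the colours were small. Hoxa5, which is linked to mammary epithelial differentiation and to the tumour suppressor Trp53, was the single Hoxa gene called. On day 15 it had 27.6, 31.5 and 31.3 CPM in GFP cells and 43.4, 36.4 and 36.7 CPM in mCherry cells of tumours 1, 2 and 3, without overlap. The means were 30.1 ± 2.19 and 38.8 ± 3.94 CPM (SD, n = 3), and the log2 fold change was -0.34 (SE 0.10, adjusted p = 0.0480), 1.26-fold lower. This value lies at the threshold: DESeq2 gave an adjusted p of 0.0911, a minimum count of 50 gave 0.0521, and leaving out tumour 1, 2 or 3 gave 0.155, 0.0597 and 0.0885. On day 7 Hoxa5 had 17.4, 11.5 and 15.5 CPM in GFP cells and 18.1, 16.7 and 18.1 CPM in mCherry cells, overlapping, with a log2 fold change of -0.29 (SE 0.17, adjusted p = 0.268).

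Hoxa2 and Hoxa10, an anterior and a posterior gene of the cluster, were lower in GFP cells in all 3 tumours on day 7 without passing the test. Hoxa2 had 5.95, 7.93 and 8.12 CPM in GFP and 11.3, 10.1 and 10.3 CPM in mCherry cells, and its log2 fold change was -0.55 (SE 0.20, adjusted p = 0.0863). Hoxa10 had 12.6, 12.4 and 15.07 CPM in GFP and 15.12, 17.8 and 21.3 CPM in mCherry cells, with -0.45 (SE 0.16, adjusted p = 0.0836). For neither gene did the 2 colours overlap on day 7. On day 15 both overlapped: Hoxa2 had 14.9, 11.2 and 12.6 against 16.4, 10.6 and 17.5 CPM (-0.15, SE 0.14, adjusted p = 0.497), and Hoxa10 had 24.6, 28.4 and 27.05 against 24.0, 23.5 and 28.6 CPM (0.10, SE 0.11, adjusted p = 0.541).

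Hoxa7, a gene of the middle of the cluster, had 20.3, 18.7 and 22.4 CPM in GFP and 19.0, 14.9 and 21.3 CPM in mCherry cells on day 7, and 33.2, 32.2 and 33.2 against 35.6, 32.2 and 27.2 CPM on day 15. The colours overlapped on both days, and the log2 fold changes were 0.14 (SE 0.15, adjusted p = 0.554) and 0.09 (SE 0.10, adjusted p = 0.584).

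Hoxa6 was low on day 7, with 0.744, 0.823 and 1.86 CPM in GFP and 1.75, 0.887 and 2.01 CPM in mCherry cells. On day 15 it had 7.55, 7.81 and 9.04 against 11.4, 8.86 and 9.30 CPM, and the colours overlapped on both days. The log2 fold changes were -0.47 (SE 0.40, adjusted p = 0.471) and -0.24 (SE 0.16, adjusted p = 0.317). The remaining Hoxa genes tested were Hoxa3, at 0.01 (SE 0.30) on day 7 and 0.36 (SE 0.16) on day 15, and Hoxa9, at 0.30 (SE 0.48) and 0.66 (SE 0.32); their adjusted p-values ranged from 0.160 to 0.989. Hoxa4, with 1 to 15 counts per library, was too low to be tested between the colours.

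Hoxc6, the highest of the Hoxc genes, had 1, 1 and 0 counts in GFP and 4, 4 and 4 counts in mCherry cells on day 7, and was not tested there. On day 15 it had 9, 20 and 22 against 14, 14 and 9 counts, overlapping, with a log2 fold change of 0.38 (SE 0.45, adjusted p = 0.597).

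**Figure D5:**
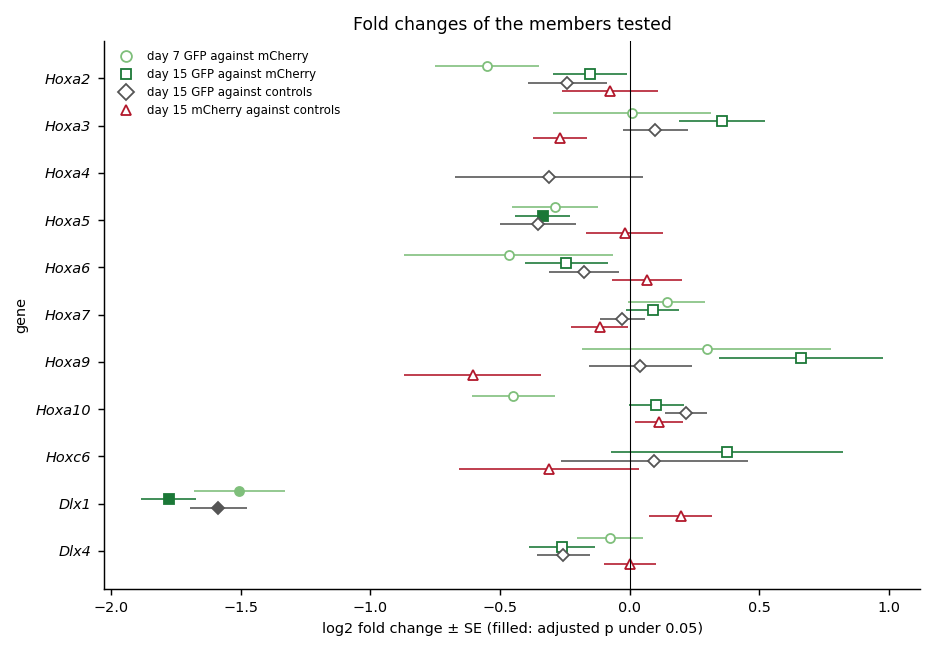
Log2 fold change ± SE of members tested in 4 comparisons; filled symbols passed an adjusted p of 0.05. Dlx1 lies between -1.78 and -1.51 in the 3 comparisons of GFP cells and at 0.20 for mCherry cells against controls, and Hoxa5 on day 15 is the other filled symbol.

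Against control tumours, which were sequenced in the same run as day 15, Dlx1 in the bystander mCherry cells was not shown to differ. The 4 controls had 42.7, 47.1, 40.7 and 35.6 CPM (mean 41.5 ± 4.77, SD, n = 4), and the range of the day 15 mCherry cells, 40.9 to 54.4 CPM, overlapped theirs. The log2 fold change of mCherry cells against controls was 0.20 (SE 0.12, adjusted p = 0.466). The GFP cells, at 13.3 to 13.5 CPM, lay below all 4 controls, with a log2 fold change of -1.59 (SE 0.11, adjusted p = 0.00203), 3.00-fold lower. This comparison shares its GFP libraries with the within-tumour one and its controls with that of the mCherry cells.

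Between day 15 mCherry cells and controls, 0 of 11 members and 0 of 14800 genes passed with edgeR, a share of 0%. At an unadjusted p under 0.05 there were 2104 genes and 2 members; DESeq2 called 251 genes and 0 members. The members were Hoxa3 (-0.27, SE 0.10, adjusted p = 0.314) and Hoxa9 (-0.61, SE 0.26, adjusted p = 0.349). Hoxa3 had 6.64 to 7.01 CPM in the mCherry cells and 8.17 to 8.70 CPM in the controls, without overlap, and Hoxa9 had 1.08 to 2.15 and 2.22 to 2.69 CPM, also without overlap.

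Between day 15 GFP cells and controls, 1 of 12 members passed, Dlx1, against 13.1% of 14801 genes (6.97% lower and 6.09% higher). Hoxa5 had 39.7, 38.5, 49.4 and 31.7 CPM in the controls, all above the 27.6 to 31.5 CPM of the GFP cells, with a log2 fold change of -0.35 (SE 0.15, adjusted p = 0.134). It passed without control 4 (-0.46, adjusted p = 0.0381). Hoxa10 had 23.3, 25.3, 23.7 and 22.9 CPM in the controls, overlapping the 24.6 to 28.4 CPM of the GFP cells, with 0.22 (SE 0.08, adjusted p = 0.0999). Hoxa2, Hoxa3, Hoxa4, Hoxa6, Hoxa7, Hoxa9, Hoxc6 and Dlx4 lay between -0.31 and 0.10 and did not pass. The controls had 14.2 to 19.5 CPM of Hoxa2, 8.08 to 10.1 of Hoxa6, 32.0 to 37.6 of Hoxa7, 19.0 to 22.4 of Dlx4 and 0.440 to 0.903 of Hoxc6.

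The difference in GFP effect between the days was tested for 11 members, and 0 passed with edgeR or DESeq2, against 0.211% of 16626 genes with edgeR. For Dlx1 it was -0.27 (SE 0.19, adjusted p = 0.665), an effect not shown to differ between days. At an unadjusted p under 0.05 with edgeR there were 1703 of the 16626 genes and 2 of the 11 members. These members were Hoxa10, at 0.55 (SE 0.18, adjusted p = 0.285), and Hoxc6, which had 0 to 4 counts in each day 7 library.

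Levels themselves differed between the days in both colours, which is given as a description because day and sequencing run coincide. In mCherry cells Hoxa6 was higher on day 15 by 2.66 on the log2 CPM scale, percentile 97.8 among 16266 genes, and in GFP cells by 2.84, percentile 98.2. Hoxa3 was higher by 1.51 and 1.81 and Dlx1 by 1.26 and 0.95. Dlx4 was lower on day 15, with differences of -0.54 and -0.77. The middle 50% of genes lay between -0.89 and 0.81 in mCherry cells and between -0.87 and 0.74 in GFP cells. In the day 7 groups Hoxa6 was at 1.31 and 1.77 RPKM, below Hoxa2 at 4.13 and 5.96 RPKM; in the day 15 and control groups Hoxa6 was at 9.31 to 11.3 and Hoxa2 at 7.27 to 8.91 RPKM.

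The non-coding gene with a difference was Halr1, a long non-coding RNA gene beside the Hoxa cluster (chr6:52102949-52113684, plus strand). On day 7 it had 2.44, 3.52 and 1.51 CPM in GFP and 9.71, 10.3 and 9.81 CPM in mCherry cells of tumours 2, 3 and 4. On day 15 it had 5.90, 7.56 and 4.10 CPM in GFP and 10.7, 11.6 and 8.15 CPM in mCherry cells of tumours 1, 2 and 3. Halr1 was lower in GFP cells of every tumour and the colours did not overlap on either day. Its log2 fold change was -2.06 (SE 0.27, adjusted p = 7.7e-04) on day 7 and -0.79 (SE 0.16, adjusted p = 0.00725) on day 15; without the tumour block the second was -0.77 with an adjusted p of 0.0575. Controls had 14.2, 7.04, 12.6 and 6.03 CPM, and day 15 GFP cells were not called against them (-0.73, SE 0.34, adjusted p = 0.178). Of 53 antisense, non-coding and other genes of the clusters, 8 were tested on day 7 and 11 on day 15. Halr1 was the 1 called on each day, against 18.2% and 19.5% of all genes. Hotairm1, an antisense transcript of the cluster, had log2 fold changes of -0.45 (SE 0.20, adjusted p = 0.160) on day 7 and 0.13 (SE 0.14, adjusted p = 0.560) on day 15.

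Of the 9 TALE partners of Hox proteins 8 were tested each day, with 1 lower on day 7 and 2 lower on day 15. The share of all genes called lower was 9.33% on day 7 and 10.6% on day 15. Pbx3 was lower on both days, from 23.9 ± 1.71 in mCherry to 16.5 ± 2.27 CPM in GFP cells on day 7 and from 27.6 ± 2.33 to 17.8 ± 2.87 CPM on day 15 (SD, n = 3). Its log2 fold changes were -0.56 (adjusted p = 0.0340) and -0.61 (adjusted p = 0.0104), the first lost without tumour 2 (adjusted p = 0.269) or tumour 3 (0.0742). On day 15 Pknox1 was lower, at -0.36 (adjusted p = 0.0490), a call lost in 4 of 8 alternatives (0.109 with DESeq2 and up to 0.225). Against controls, Pbx3 (-0.45, adjusted p = 0.0388) and Meis1 (-0.43, adjusted p = 0.0389) were lower in day 15 GFP cells, calls that were lost when single libraries were left out. The median of the list was -0.02 on day 7 and -0.06 on day 15, against -0.0037 and 0.0065 over all genes.

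All 30 Polycomb and Trithorax genes were tested. The share of all genes called was 18.2% on day 7 (8.89% higher, 9.33% lower) and 19.5% on day 15 (8.94% higher, 10.6% lower). On day 7, 1 was higher and 1 lower. Ezh1, a histone H3 lysine methyltransferase, was at 0.41 (adjusted p = 0.0431). Its call was lost in 4 of 8 alternatives (adjusted p of 0.0788 with DESeq2 and up to 0.234). Phf19, a Polycomb accessory protein, was at -0.69 (adjusted p = 0.0105). Its call was lost in 2 of 8 alternatives (0.0662 without the tumour block and up to 0.117). On day 15, 6 were higher and 4 lower, among them Phf19 at -0.98 (adjusted p = 5.98e-04), Phf1 at 0.57 (adjusted p = 0.00171), Phc3 at 0.50 (adjusted p = 0.00349) and Ezh2, a methyltransferase that is usually high in dividing cells, at -0.48 (adjusted p = 0.00803). The list's median was 0.03 on day 7 and -0.02 on day 15.

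Of 35 other homeobox and patterning genes, 7 were tested on day 7 and 9 on day 15. Shox2, a homeobox gene of the proximal limb, was higher in GFP cells on both days, by 0.84 (adjusted p = 0.0333; 0.128 without tumour 2 and 0.209 without tumour 3) and 0.88 (adjusted p = 0.00926). On day 15 Prrx1, a mesenchymal homeobox gene, was lower, at -1.34 (adjusted p = 0.0202). This call was lost in 4 of 7 alternatives (adjusted p of 0.0562 without the block and up to 0.0979). Some fibroblast and pericyte markers were lower in the same GFP libraries, and their part in the Prrx1 difference was not tested. The list's median was 0.25 on day 7 and 0.03 on day 15.

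Bone matrix and osteogenic genes, some of which Dlx5 is known to act on, moved in both directions while Dlx5 and Dlx6 were at 0 to 2 counts per library. Of 14 genes 10 were tested each day. Called were 4 higher and 3 lower on day 7, and 4 higher and 2 lower on day 15. Over all genes tested, 18.2% were called on day 7 and 19.5% on day 15. Ibsp, a bone sialoprotein gene, was lower in GFP cells, at -4.36 (adjusted p = 2.8e-06) on day 7 and -4.16 (adjusted p = 1.1e-05) on day 15 on the log2 scale. The osteocalcin genes Bglap2 and Bglap were higher, by 2.94 and 2.18 on day 7 (adjusted p = 1.1e-05 and 1.5e-05) and by 1.87 and 1.32 on day 15 (adjusted p = 1.7e-04 and 0.0055). These are near-identical neighbouring copies, so reads may be split between them. Phex was higher by 0.72 on day 7 (adjusted p = 0.0033) and by 0.56 on day 15 (adjusted p = 0.0455). Col1a1 was lower, at -2.12 on day 7 (adjusted p = 0.0111) and -2.52 on day 15 (adjusted p = 0.0037). The part of the fibroblast and pericyte markers, some of which were lower too, in the Col1a1 difference was not tested. The list's median was 0.16 on day 7 and 0.04 on day 15.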

How the data were processed

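RNA of sorted 4T07 cells was sequenced in 16 libraries. Per the labels, the deposited raw counts per gene came from the company that did the sequencing. The submitters' processing notes name mm10 as genome; the aligner, the counter and its strand setting remain not given in the sources used here. Fold changes deposited by the authors were left unused. The 176 rows without a symbol held at most 0.011% of a library's counts and were left out. Day 7 columns carry the numbers 2 to 4 where the labels carry 1 to 3, so they and the control columns were matched to their group only.

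Members are symbols of Hox genes of clusters a to d and of Dlx1 to Dlx6; members and gene lists were chosen with earlier results of these data known. Each member has its values given if it was called in a comparison, was among the 8 highest by RPKM or was the highest of its cluster; from each list up to 4 called genes of smallest p are named. CPM is the count per 1000000 counts of the library, and RPKM divides it by the exon length of GENCODE M21 (GRCm38). Tests used edgeR 4.0.16 (R 4.3.3; filterByExpr, TMM, quasi-likelihood F-test) on the whole table, with Benjamini-Hochberg adjustment over all genes and a threshold of 0.05; each SE was taken as the log2 fold change divided by the square root of F. GFP was compared with mCherry with tumour as a block; controls were compared without one. Same-numbered libraries deviated together, with correlations of 0.110 to 0.162 on day 7 and 0.0896 to 0.232 on day 15. On day 7 the column number was taken as the tumour, while on day 15 the labels name it. Other pairs were at most 0.0186. As alternatives, the fits were repeated with DESeq2 1.42.0, with edgeR on DESeq2 size factors, unfiltered, with a minimum count of 50, without the block, and without each tumour or library. The scripts were tested on simulated data. For day 7, 98 of 14578 genes were changed by 0.5 and 102 by 1.5, and no differences between tumours were simulated. In the measured day 7 data 18.2% of genes were called, so the adjustment was stricter in the simulation. The changed genes were picked at random from all levels tested, so these rates need not hold for the members. There, a true log2 change of 0.5 was called in 26.5% of changed genes on day 7 and 54.2% on day 15. For mCherry cells against controls it was called in 20.6%. A true change of 1.5 was called in 84.3%, 92.3% and 83.5%. A member that did not pass may therefore still differ by an amount near 0.5. Results for a few genes are not reported here.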

Additional observations from a re-analysis of the deposited data

Results flagged for a closer look

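In the 4 control libraries, 17 values were looked at (the 12 members that passed and 5 cluster sums), and 3 had a single library far from the other 3 by Dixon's ratio; chance alone flags about 1 in 20. Hoxa6 in control 4 was 8.08 CPM, below the 9.94 to 10.1 CPM of the others. The summed Hoxa genes in control 3 were 159 CPM, above 133 to 137 CPM. The summed Hoxd genes in control 2 were 1.8 CPM, above 0.126 to 0.287 CPM; control 2 also held the highest Hoxb and Hoxc sums of the controls and the highest endothelial and macrophage markers.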

How the results depend on the processing

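Dlx1 was called lower in GFP cells in each within-tumour comparison and against controls under every alternative, with log2 fold changes from -1.63 to -1.44 on day 7, -1.86 to -1.69 on day 15 and -1.66 to -1.53 against controls. The number of members called on day 15 fell from 2 to 1 with DESeq2, with a minimum count of 50 and without any 1 tumour (1 to 1), Hoxa5 being lost; without control 4 it rose from 1 to 2 against controls. The number passing 10 counts in 3 libraries was 12, and 18 at 5 counts, 11 at 20 counts, 11 at 0.5 CPM, 10 in the day 7 table alone, 12 in the day 15 table alone and 12 without control 2, the last added after seeing the data. Of all genes, those called ranged from 1156 to 4558 without 1 tumour on day 7 and from 1736 to 2546 on day 15. Against controls they ranged from 287 to 2093 for GFP cells (2953 with DESeq2) and 0 to 7 for mCherry cells (251 with DESeq2). For the difference between days they were 153 with DESeq2, 354 with no filter, 14 with a minimum count of 50, 2 with no replicate block and 3, 3 and 9 without day 15 tumour 1, 2 or 3, the range over all tumours left out being 3 to 126. Values near 0 changed sign when 1 tumour was left out, ranging on day 7 from -0.17 to 0.15 for Hoxa3, -0.018 to 0.89 for Hoxa9 and -0.12 to 0.0084 for Dlx4, and on day 15 from -0.25 to 0.0043 for Hoxa2 and -0.017 to 0.15 for Hoxa7. Halr1's difference between days, 1.26 (adjusted p = 0.148), passed with no filter (1.27, adjusted p = 0.0055). The causes of these changes were not tested. Without the block no member changed its call. Total counts on day 7 were lower than in the other groups, and members under 10 counts per library could not be compared.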
